A study of Homo sapiens with 12 samples.

Results

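The 10 genes described here are the endoplasmic reticulum (ER) chaperones and XBP1 targets HSPA5, HSP90B1, XBP1, DNAJB9, DNAJB11, HERPUD1, SDF2L1, PDIA4, CRELD2 and HYOU1. They were picked out by gene symbol among the 23238 genes present in both deposited count tables, and all 10 had counts high enough to be tested in KBM7 and in K562. Their RNA was measured in KBM7 and K562, cell lines derived from chronic myeloid leukemia in blast crisis, after knockdown of the deubiquitinase USP15. The groups were KBM7 with siUSP15 (2 libraries), KBM7 with siCtrl (2 libraries), K562 with siUSP15 (4 libraries) and K562 with siCtrl (4 libraries). siUSP15 was 1 pool of siRNAs against USP15 and siCtrl was 1 non-targeting pool, so the effect of USP15 loss cannot be told apart from that of a pool. All cells were transfected with a lipid reagent and RNA was taken 72 h later. KBM7 grew in IMDM and K562 in RPMI medium, both with fetal calf serum and L-glutamine.

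When unfolded proteins accumulate in the ER, the sensors IRE1, ATF6 and PERK start the unfolded protein response. IRE1 splices the mRNA of XBP1 into a form that encodes an active transcription factor, and spliced XBP1 and cleaved ATF6 together switch on chaperones, folding enzymes and degradation factors of the ER. PERK instead phosphorylates eIF2α and raises translation of ATF4, a transcription factor of amino acid transport and synthesis. ATF4 is also reached through the kinase GCN2 when amino acids are scarce, with no demand on the ER. The 10 genes read the XBP1 and ATF6 arms, and a list of 33 ATF4 and amino acid genes reads the other, so that the comparison of siUSP15 with siCtrl asks which of the programs moved.

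The promoters are shown because they hold the letters through which these arms are known to act. In the RefSeq promoters of GRCh38.p14, which run from 250 bases before to 50 bases after each start site, all 10 genes were found, XBP1 and PDIA4 with 2 start sites each. Searched on both strands were the ER stress response element ERSE (CCAAT and CCACG with 9 bases of any kind between them), its short form ERSE-II (ATTGG and CCACG with 1 base of any kind between them), the unfolded protein response element UPRE (TGACGTGG) and the C/EBP-ATF response element CARE (TGATGCAA). ERSE stood in 4 of the 10 genes, against 0.0769% of the 35116 promoters of the table. ERSE-II stood in 3 others, against 0.0541% of all promoters. UPRE (0.729% of all promoters) stood in HYOU1 and CARE (0.866% of all promoters) in HERPUD1. The counts are of genes and the shares are of promoters. The 10 genes were picked as ER chaperones and XBP1 targets, so the contrast describes that choice and carries no test. DNAJB9, DNAJB11 and PDIA4 held none of these letters in the window, which says nothing of other letters or of sites farther away.

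The whole upstream stretch is printed for HSPA5, the ER Hsp70 that binds the sensors at rest, and for HYOU1, its nucleotide exchange partner, each on the minus strand and read 5′ to 3′ up to the base before the start site. Capitals mark the matches.
HSPA5, chr9:125241344-125241593: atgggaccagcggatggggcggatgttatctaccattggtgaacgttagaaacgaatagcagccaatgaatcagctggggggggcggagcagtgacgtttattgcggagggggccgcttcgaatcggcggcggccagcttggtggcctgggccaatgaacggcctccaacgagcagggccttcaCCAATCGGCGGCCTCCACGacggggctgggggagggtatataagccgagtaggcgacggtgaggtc
HYOU1, chr11:119057206-119057455: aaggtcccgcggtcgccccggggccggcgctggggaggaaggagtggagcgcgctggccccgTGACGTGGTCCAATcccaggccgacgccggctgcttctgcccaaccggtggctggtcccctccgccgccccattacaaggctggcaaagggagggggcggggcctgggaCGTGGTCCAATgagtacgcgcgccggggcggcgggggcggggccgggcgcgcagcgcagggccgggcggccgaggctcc
HSPA5 holds 1 exact match to ERSE, from base -66 to base -48 of the start site. Only exact matches were searched, so copies that depart from the given letters are neither marked nor counted. HYOU1 holds 2 ERSE-II matches, both on the opposite strand, from -185 to -175 and from -79 to -69, and the UPRE from -188 to -181 overlaps the first of them.

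For HERPUD1, the stretch that carries both a CARE and an ERSE-II is printed, because it is the gene of the 10 that holds the letters of both arms. For the others, each site is shown with 5 bases on either side, in the direction of the gene.
HERPUD1, chr16:56931961-56932040, plus strand: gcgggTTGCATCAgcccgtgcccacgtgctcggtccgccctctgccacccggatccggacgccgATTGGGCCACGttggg
HSP90B1, chr12:103930211-103930239, plus strand: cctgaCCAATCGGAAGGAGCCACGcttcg
HSP90B1, chr12:103930316-103930344, plus strand: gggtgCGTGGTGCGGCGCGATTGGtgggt
XBP1, chr22:28800598-28800626, minus strand: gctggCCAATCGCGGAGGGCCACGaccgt
CRELD2, chr22:49918549-49918577, plus strand: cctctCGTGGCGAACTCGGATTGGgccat
SDF2L1, chr22:21642109-21642129, plus strand: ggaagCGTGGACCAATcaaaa
HSP90B1 carries 2 ERSE matches on opposite strands. The matches in CRELD2 and SDF2L1 and the CARE of HERPUD1 read on the opposite strand to the gene. A match is a description of the letters, and no binding was measured here.

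**Figure D1:**
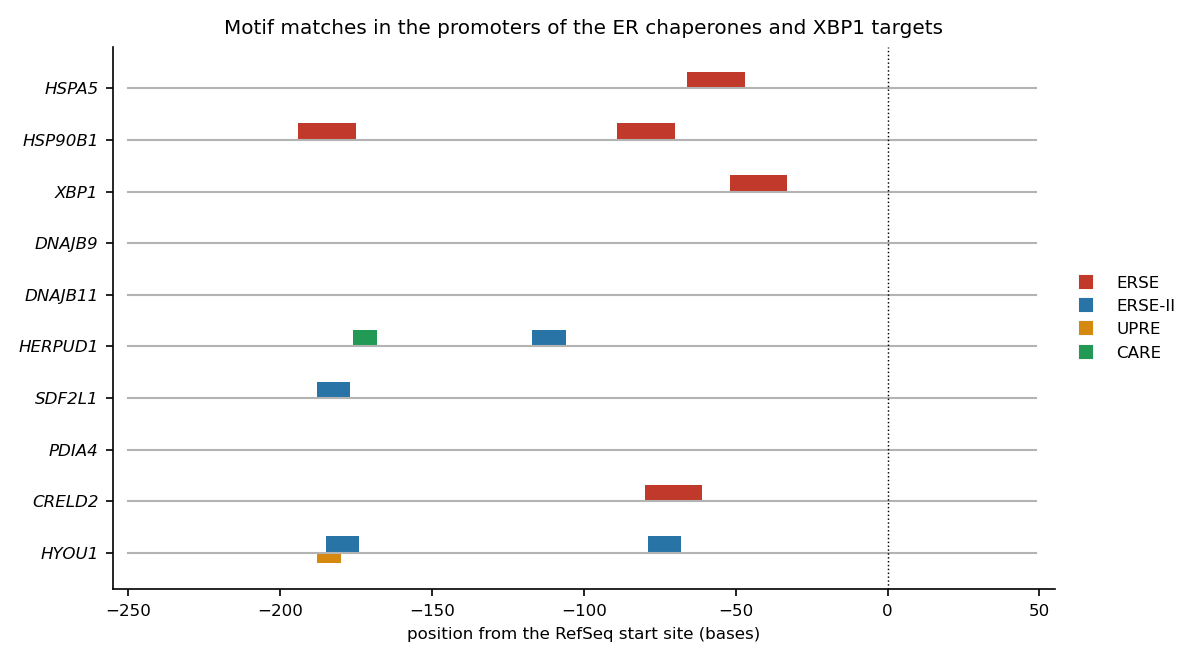
Positions of the motif matches (colored boxes, drawn to scale) in the promoters of the 10 genes, in bases from the RefSeq start site (dotted line at 0). ERSE (red) is seen in HSPA5, HSP90B1, XBP1 and CRELD2, ERSE-II (blue) in HERPUD1, SDF2L1 and HYOU1, and no box in DNAJB9, DNAJB11 and PDIA4.

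Values are CPM, the counts set against library size after TMM scaling within each cell line, tests are edgeR's quasi-likelihood test on the counts, 2-sided, and adjusted p is by Benjamini-Hochberg over all genes tested, with a threshold of 0.05. A KBM7 library held between 23450607 and 29441118 counts and a K562 library between 23020401 and 43566543. The deepest K562 library was siUSP15 replicate 2, and the next, siUSP15 replicate 3, held 27959990 counts. The lowest count of any of the 10 genes in a library was 262. The K562 libraries fell into a set of replicates 1 and 2 and a set of replicates 3 and 4. The first principal component (64.4% of the variance) separated them. No label names what the sets are, although the submitters call the K562 data batch corrected. The K562 test therefore carried a set term. Each set was also tested by its own contrast, in a fit of all K562 libraries that shared the estimate of the spread. Of erythroid markers, HBZ averaged 204.7 CPM and HBG2 1483 CPM in K562, while HBZ lay at 0.13 CPM and HBG2 at 9.37 CPM in KBM7, where the leukocyte marker PTPRC averaged 469.5 CPM. Of markers of other cell types, CD3E averaged 0.931 CPM in KBM7 and 0.0767 CPM in K562, and COL1A2 0.0299 CPM in KBM7 and 3.13 CPM in K562. The endothelial marker PECAM1 averaged 19.1 CPM in KBM7 and 5.25 CPM in K562, and the epithelial markers EPCAM and KRT8 averaged 91.3 and 456.6 CPM in K562.

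USP15 (chromosome 12, 62260338 to 62417431 in hg38) was lower with siUSP15 in every library. In KBM7 it had 113.0 and 114.2 CPM with siUSP15, against 209.8 and 215.8 CPM with siCtrl, or 53.4% of the control. In K562 replicates 1 and 2 it had 115.7 and 134.3 CPM with siUSP15, against 269.1 and 274.9 CPM with siCtrl, or 45.9%. In K562 replicates 3 and 4 it had 191.2 and 196.7 CPM with siUSP15, against 342.8 and 330.0 CPM with siCtrl, or 57.7%. The groups did not overlap in any set, and the knockdown was deeper in replicates 1 and 2 than in replicates 3 and 4 by 0.32 on the log2 scale (difference -0.32, SE 0.0753, edgeR adjusted p = 0.0128).

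In KBM7 with siUSP15, XBP1 itself was the 1 gene of the 10 that passed the test, and their median log2 fold change was 0.04. XBP1 (chromosome 22, 28794555 to 28800597) had 346.2 and 329.9 CPM with siUSP15, against 297.1 and 280.7 CPM with siCtrl. Both siUSP15 libraries lay above both siCtrl libraries, and the log2 fold change was 0.23 (SE 0.0464, edgeR adjusted p = 0.00355), or 17% more RNA. The counts add up all transcript forms of the gene, so spliced XBP1 was not measured. An antisense gene overlaps XBP1 but had at most 48 counts in a library.

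The chaperones HSPA5, HSP90B1 and HYOU1 stayed close to the control in KBM7. HSPA5 (chromosome 9, 125234853 to 125241330) had 578.6 and 588.4 CPM with siUSP15, against 598.2 and 603.0 CPM with siCtrl, a log2 fold change of -0.04 (95% interval -0.13 to 0.05). HSP90B1 (chromosome 12, 103930107 to 103953645), the ER form of Hsp90, had 1046 and 1061 CPM with siUSP15, against 1023 and 1035 CPM with siCtrl, a log2 fold change of 0.03 (95% interval -0.06 to 0.13). HYOU1 (chromosome 11, 119044189 to 119057202) had 298.2 and 304.9 CPM with siUSP15, against 293.2 and 289.2 CPM with siCtrl, a log2 fold change of 0.05 (95% interval -0.04 to 0.14). None of these 3 passed the test, and the intervals leave room for changes of at most about 0.14 on the log2 scale.

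The disulfide isomerase PDIA4 (chromosome 7, 149003062 to 149028641) had 200.7 and 196.6 CPM with siUSP15 in KBM7, against 192.0 and 183.0 CPM with siCtrl, and a log2 fold change of 0.08 (edgeR adjusted p = 0.186). CRELD2 (chromosome 22, 49918167 to 49927540), a secreted ER stress protein, had 28.8 and 28.3 CPM with siUSP15, against 25.2 and 27.0 CPM with siCtrl, and 0.13 on the log2 scale (edgeR adjusted p = 0.175). SDF2L1 (chromosome 22, 21642261 to 21644298), a partner of the DNAJB11 co-chaperone, had 17.5 and 14.9 CPM with siUSP15, against 14.99 and 14.86 CPM with siCtrl, and a log2 fold change of 0.12 (edgeR adjusted p = 0.364). The SDF2L1 groups overlapped, its siUSP15 replicate 1 alone standing higher.

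DNAJB9 (chromosome 7, 108569568 to 108574850), a co-chaperone that keeps IRE1 in check, had 14.0 and 14.2 CPM with siUSP15 in KBM7, against 14.7 and 16.8 CPM with siCtrl. DNAJB11 (chromosome 3, 186567403 to 186597203), which brings substrates to HSPA5, had 113.2 and 112.0 CPM with siUSP15, against 110.9 and 111.3 CPM with siCtrl. HERPUD1 (chromosome 16, 56932048 to 56944863), a scaffold of ER-associated degradation, had 34.1 and 32.2 CPM with siUSP15, against 33.5 and 35.4 CPM with siCtrl. Neither DNAJB9, DNAJB11 nor HERPUD1 passed the test, with edgeR adjusted p of 0.231, 0.78 and 0.612. DNAJB9 overlaps 2 protein-coding genes, 1 of which reached 2130 counts in a library, DNAJB11 overlaps 1 with up to 1471 and HSP90B1 overlaps 1 with up to 819, and whether the counting used strand is not given in the sources used here.

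In all, 1 of the 10 genes was called in KBM7, against 29% of all 14980 genes tested, of which 13.2% rose and 15.8% fell. With the replicate number as a block it was again 1 of 10, against 28.9% of all genes (15.7% lower). The siUSP15 libraries lay above both siCtrl libraries for 6 of the 10 and below for 2, against 32.9% and 33.6% of all genes, or 66.5% in either direction. The median log2 fold change of the 10 was 0.04, and that of all genes was 0.0007. The call of XBP1 held with DESeq2, with limma-voom and without each KBM7 library in turn. Lineage markers moved with siUSP15 in KBM7, where 1 of 8 tested was higher (MPO, log2 fold change 1.54) and 6 were lower (HBE1, -3.04, and KIT, -0.78, among them). Their summed level was 1376 to 1447 CPM with siUSP15, against 1592 to 1596 CPM with siCtrl, and their part in the result was not tested. Of 5 markers of other cell types that were tested, PECAM1 was lower (-1.13), with a summed level of 25.2 to 29.0 CPM with siUSP15, against 39.5 to 44.3 CPM with siCtrl. In such bulk RNA, fewer cells of a type and less RNA per cell cannot be told apart.

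In K562, the chaperones rose by small amounts and XBP1 was not called. With the set term, 6 of the 10 genes rose with siUSP15 (CRELD2, PDIA4, HYOU1, SDF2L1, HSPA5 and HSP90B1) and 0 fell, against 15.8% of all 13731 genes tested that were called, 6.88% higher and 8.9% lower. The same 6 were higher in each of the 4 siUSP15 libraries than in any of the 4 siCtrl libraries, which held for 3.86% of all genes, while 4.51% lay below and 8.37% did not overlap in either direction. The median log2 fold change of the 10 was 0.13, against 0.001 for all genes.

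PDIA4 and HYOU1 gave the firmest of these calls. PDIA4 had 305.3, 310.1, 303.4 and 291.1 CPM in siUSP15 replicates 1 to 4, against 233.4, 240.2, 270.4 and 266.8 CPM in siCtrl replicates 1 to 4, and a log2 fold change of 0.26 (SE 0.0454, edgeR adjusted p = 0.00545). HYOU1 had 353.3, 346.1, 364.7 and 359.9 CPM with siUSP15, against 284.4, 281.8, 334.7 and 337.2 CPM with siCtrl, and a log2 fold change of 0.21 (SE 0.0401, edgeR adjusted p = 0.00833). In both genes the siCtrl libraries of replicates 1 and 2 were the low ones, while the siUSP15 libraries lay close together across the sets. Both calls held without each K562 library in turn.

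CRELD2 had the largest fold change of the 10 in K562. It had 13.9, 14.5, 15.9 and 12.1 CPM in siUSP15 replicates 1 to 4, against 11.09, 11.33, 10.996 and 10.98 CPM in siCtrl replicates 1 to 4, a log2 fold change of 0.35 (SE 0.0836, edgeR adjusted p = 0.0182) or 27.4% more RNA. Its controls hardly differed, and replicate 4 was the lowest of its siUSP15 libraries. CRELD2 was also the least abundant of the 10 in K562, with 262 to 637 counts in a library, and it overlaps a protein-coding gene with at most 756 counts.

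HSPA5 had 567.0, 567.8, 602.4 and 588.2 CPM in siUSP15 replicates 1 to 4, against 489.3, 500.2, 565.5 and 552.9 CPM in siCtrl replicates 1 to 4, and a log2 fold change of 0.14 (edgeR adjusted p = 0.0138). SDF2L1 had 132.5, 145.2, 133.2 and 136.0 CPM with siUSP15, against 123.5, 110.4, 122.4 and 129.5 CPM with siCtrl, and a log2 fold change of 0.17 (edgeR adjusted p = 0.0372). HSP90B1 had 1010, 964.1, 977.1 and 928.8 CPM with siUSP15, against 902.3, 909.8, 907.9 and 854.8 CPM with siCtrl, and a log2 fold change of 0.12 (edgeR adjusted p = 0.0311). The gap between the groups was narrow in HSPA5, where the lowest siUSP15 library stood at 567.0 CPM and the highest siCtrl library at 565.5 CPM. With the replicate number as a block, SDF2L1 and HSP90B1 were no longer called (edgeR adjusted p = 0.0871 and 0.0602), which left 4 of 10, against 7.44% of all genes (3% higher, 4.44% lower).

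The 4 genes that were not called in K562 differed among themselves. XBP1 had 89.96 and 90.01 CPM in siUSP15 replicates 1 and 2, against 83.6 and 82.9 CPM in siCtrl, but 79.4 and 76.8 CPM in siUSP15 replicates 3 and 4, against 81.5 and 78.2 CPM in siCtrl. Its groups overlapped over the 8 libraries, with a log2 fold change of 0.04 (edgeR adjusted p = 0.498). DNAJB11 had 87.2, 88.4, 92.2 and 89.9 CPM with siUSP15, against 76.5, 80.1, 89.0 and 90.5 CPM with siCtrl, and a log2 fold change of 0.09 (edgeR adjusted p = 0.127). HERPUD1 ranged from 32.9 to 35.5 CPM with siUSP15, against 32.8 to 35.6 CPM with siCtrl, and its log2 fold change was 0.0006. DNAJB9 ranged from 16.5 to 20.01 CPM with siUSP15, against 18.2 to 20.4 CPM with siCtrl, a log2 fold change of -0.06 (edgeR adjusted p = 0.473).

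The K562 count depended on the set term and on single libraries. Without the set term 0 of the 10 genes and 0 of all 13731 passed edgeR's test (0% of all genes), with 6 of the 10 and 1447 of all genes at an unadjusted p under 0.05. Without siCtrl replicate 1, siCtrl replicate 2 or siUSP15 replicate 1, the count fell to 2 of 10, PDIA4 and HYOU1. DESeq2 and limma-voom with the set term each called the same 6.

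**Figure D2:**
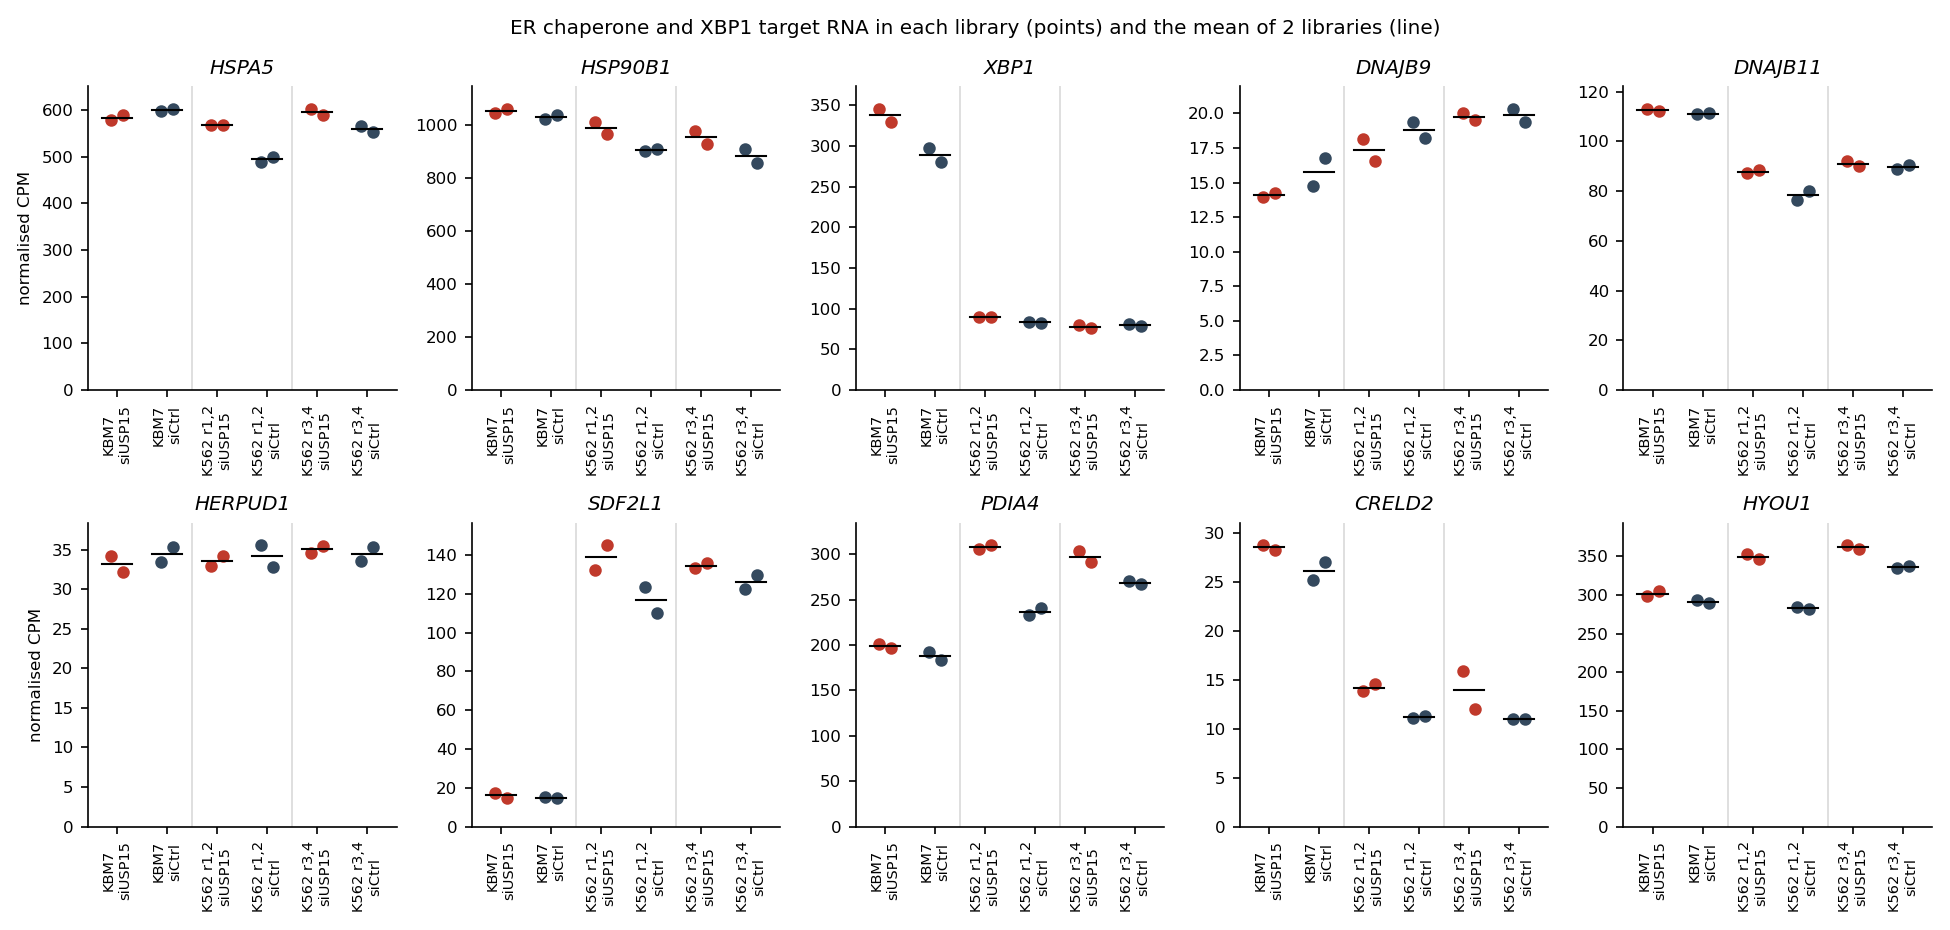
Normalised CPM of each of the 10 genes in every library (points, siUSP15 red, siCtrl dark blue) with the mean of the 2 libraries (line), by cell line and K562 set (r1,2 and r3,4), each axis starting at 0. PDIA4 and HYOU1 show the low siCtrl libraries of K562 replicates 1 and 2, and XBP1 stands several times higher in KBM7 than in K562.

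Within replicates 1 and 2 of K562, 8 of the 10 genes rose, all but DNAJB9 and HERPUD1, and 0 fell, against 36.7% of all genes that were called, 18% higher and 18.7% lower. The siUSP15 libraries lay above the siCtrl libraries in the same 8 genes and below them in DNAJB9, against 33.4% and 34.7% of all genes, or 68.1% in either direction. PDIA4 rose by 0.38 on the log2 scale (95% interval 0.30 to 0.46, edgeR adjusted p = 2.37e-06) and HYOU1 by 0.30 (95% interval 0.23 to 0.38, edgeR adjusted p = 8.63e-06). DNAJB11 rose by 0.17 (edgeR adjusted p = 0.00654), and XBP1 by 0.11 at an edgeR adjusted p of 0.0484, just inside the threshold and lost under 8 of 13 alternatives. Without siCtrl replicate 1 or siCtrl replicate 2 the count fell to 4 of 10. The count was 7 of 10 in a fit of the 4 libraries of replicates 1 and 2 alone, and 6 of 10 with DESeq2. In the same libraries, 8 of the 13 mitochondrially encoded genes rose and 0 fell. Their summed level was 45734 to 49088 CPM with siUSP15, against 42303 to 43587 CPM with siCtrl. Of 6 markers of other cell types, 2 fell and 0 rose there, with a summed level of 615.6 to 629.3 CPM with siUSP15, against 671.9 to 697.0 CPM with siCtrl. The part of either list in the result was not tested.

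Within replicates 3 and 4, 0 of the 10 genes passed edgeR's test, against 2.44% of all genes (1.19% higher, 1.25% lower), although 5 had an unadjusted p under 0.05 (HSPA5, HSP90B1, PDIA4, CRELD2 and HYOU1). DESeq2 and limma-voom each called 1 of 10, PDIA4. PDIA4 was closest to the threshold, with a log2 fold change of 0.15 (95% interval 0.07 to 0.23, edgeR adjusted p = 0.051), and CRELD2 had 0.36 (95% interval 0.12 to 0.60, edgeR adjusted p = 0.112). Without siUSP15 replicate 4 CRELD2 passed, and without siUSP15 replicate 1 or siUSP15 replicate 2 PDIA4 passed, 1 gene in each case. The siUSP15 libraries lay above the siCtrl libraries in 6 of the 10 genes, against 23.9% of all genes, while 25% of all genes lay below and 48.8% did not overlap in either direction. In these libraries 1 of 13 mitochondrially encoded genes rose and 0 fell, and their summed level was 29558 to 30080 CPM with siUSP15, against 29703 to 30040 CPM with siCtrl.

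The difference between the sets was tested itself. The response in replicates 1 and 2 exceeded that in replicates 3 and 4 for PDIA4 by 0.23 on the log2 scale (SE 0.0528, edgeR adjusted p = 0.0111) and for HYOU1 by 0.20 (SE 0.0491, edgeR adjusted p = 0.0181). These were 2 of the 10 genes, against 13% of all genes, 6.91% higher and 6.08% lower. For CRELD2 the difference was -0.01 (95% interval -0.35 to 0.32) and for HSP90B1 0.01 (95% interval -0.11 to 0.13). The count fell to 0 without siCtrl replicate 1 or siCtrl replicate 3, and to 1 without siCtrl replicate 2, siCtrl replicate 4 or siUSP15 replicate 4. The sets also differ in the depth of the knockdown, as given above, and its part in the difference was not tested.

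Between the cell lines, the response in KBM7 minus the mean response of the K562 sets was called for 4 of the 10 genes, against 23.2% of all 15833 genes tested, 10.6% higher and 12.6% lower. XBP1 responded more in KBM7, by 0.19 (SE 0.0563, edgeR adjusted p = 0.0153). HSPA5 responded less in KBM7, with a difference of -0.18 (SE 0.0474, edgeR adjusted p = 0.00669), as did PDIA4 with -0.17 (edgeR adjusted p = 0.0191) and HYOU1 with -0.15 (edgeR adjusted p = 0.024). For SDF2L1 the difference was -0.04 and for CRELD2 -0.22, and neither was called (edgeR adjusted p = 0.822 and 0.175). The count fell to 2 without KBM7 siCtrl replicate 1 or KBM7 siUSP15 replicate 1, and to 0 when the K562 sets were pooled.

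**Figure D3:**
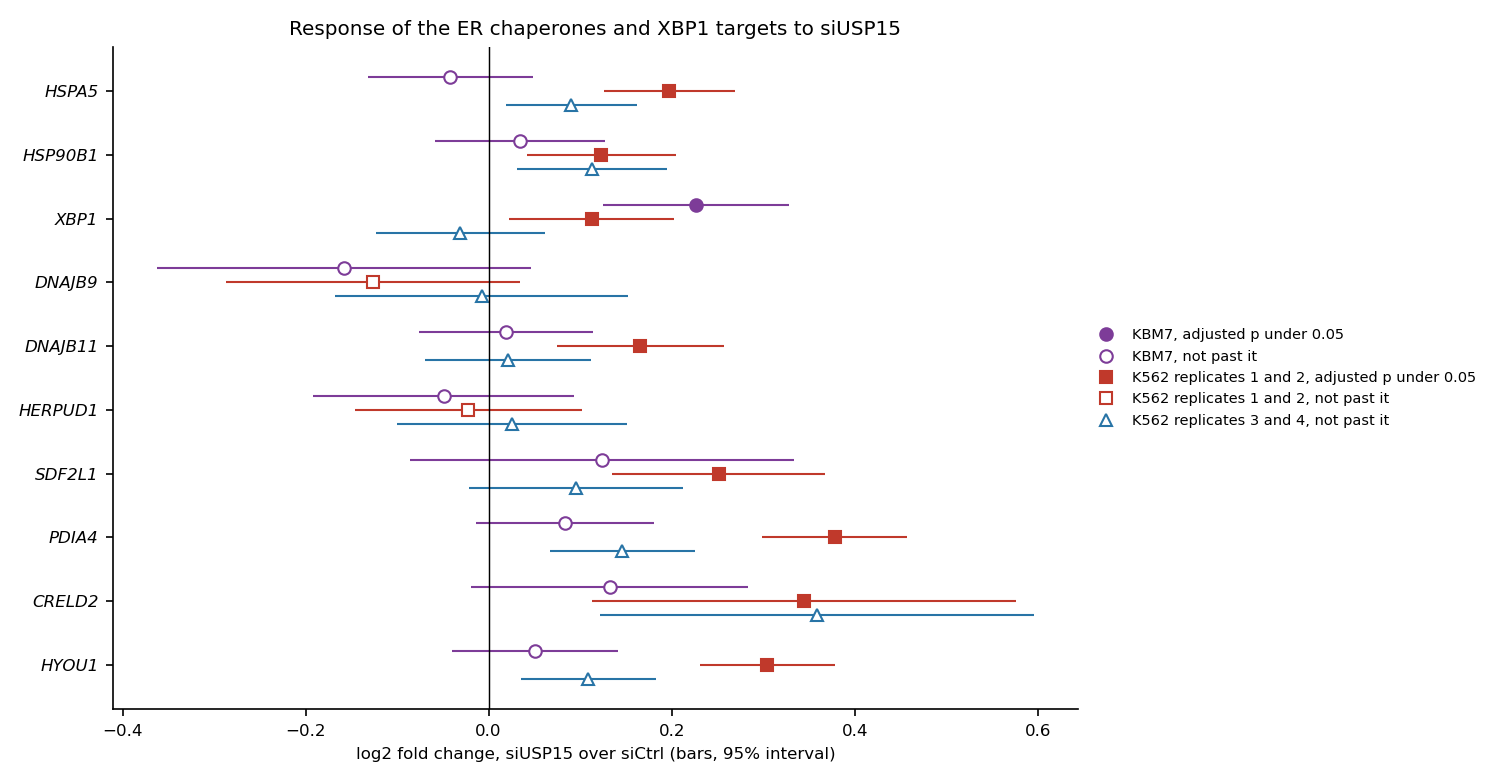
Log2 fold change of siUSP15 over siCtrl for each of the 10 genes, with 95% intervals (bars), in KBM7 (circles), K562 replicates 1 and 2 (squares) and K562 replicates 3 and 4 (triangles), filled where the adjusted p is under 0.05. XBP1 is the filled circle in KBM7, at 0.23, and 8 squares are filled, with PDIA4 at 0.38.

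The resting levels of the 10 genes differed between the cell lines, as a description across tables that were scaled apart. XBP1 averaged 288.9 ± 11.6 CPM in KBM7 siCtrl (SD, n = 2) and 81.5 ± 2.39 CPM in K562 siCtrl (SD, n = 4). SDF2L1 went the other way, with 14.9 ± 0.0912 CPM in KBM7 siCtrl (SD, n = 2) and 121.4 ± 8.01 CPM in K562 siCtrl (SD, n = 4). CRELD2 averaged 26.1 ± 1.31 CPM in KBM7 siCtrl (SD, n = 2) and 11.1 ± 0.162 CPM in K562 siCtrl (SD, n = 4), while HERPUD1 was level, with 34.4 CPM in KBM7 and 34.3 CPM in K562.

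Across the 12 libraries, the log2 CPM of each gene was centered within KBM7 and within each K562 set, and compared with the mean of the 10 standardized profiles. PDIA4 (Pearson r = 0.946) and HYOU1 (0.943) lay nearest to that mean, of which each of the 10 is a part. XBP1 (0.452), HERPUD1 (-0.00358) and DNAJB9 (-0.375) lay farthest from it. Among 11000 genes, the 10 included, the profiles outside the 10 most like the mean were those of TCFL5 (0.985), CHTOP (0.976), PCSK6 (0.968), ZNF140 (0.964) and PTRF (0.961). The libraries share their transfection and their scaling, so these values describe the likeness of profiles and carry no test.

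Of 23 other ER folding genes, 3 rose and 2 fell in KBM7, and 7 rose and 0 fell in K562 with the set term. Of all genes, 13.2% rose and 15.8% fell in KBM7, and 6.88% rose and 8.9% fell in K562. P4HB, which encodes protein disulfide isomerase, rose in KBM7 (0.19, edgeR adjusted p = 0.0066) and in K562 (0.22, edgeR adjusted p = 0.00394). In KBM7 P4HB had 556.2 and 529.4 CPM with siUSP15, against 476.4 and 475.2 CPM with siCtrl. MANF, a secreted ER stress protein, fell in KBM7 by 0.18 (edgeR adjusted p = 0.0182) and rose in K562 by 0.27 (edgeR adjusted p = 0.0125), and the difference between the lines was called (-0.43, edgeR adjusted p = 5.68e-05). MANF had 58.4 and 58.6 CPM with siUSP15 in KBM7, against 66.2 and 66.0 CPM with siCtrl. DNAJC3, the co-chaperone that inhibits PERK, fell in KBM7 by 0.18 (edgeR adjusted p = 0.00956), and FKBP14, a prolyl isomerase, rose in K562 by 0.29 (edgeR adjusted p = 0.00785). The K562 count of 7 was 2 without siCtrl replicate 2, 3 without siCtrl replicate 1 or siUSP15 replicate 1, and 4 without siCtrl replicate 4, siUSP15 replicate 2 or siUSP15 replicate 3, and it was 4 with the replicate block. The KBM7 count of 3 was 2 with the replicate block, 0 without siCtrl replicate 1 and 1 without siCtrl replicate 2, and the KBM7 count of 2 that fell was 0 without either of these.

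Within replicates 1 and 2 of K562, 11 of the 23 rose and 2 fell, against 18% and 18.7% of all genes, and without siCtrl replicate 1 it was 7 and 0. Within replicates 3 and 4, 1 rose (P4HB) and 0 fell, and the 1 became 3 without siUSP15 replicate 1 or siUSP15 replicate 2 and 0 without any other single library. In replicates 3 and 4, 1.19% of all genes rose and 1.25% fell. Of 18 ER degradation genes, 2 rose and 1 fell in KBM7, and 1 rose and 2 fell in K562 (0 and 2 with the replicate block). OS9, a lectin of the degradation machinery, rose in KBM7 by 0.18 (edgeR adjusted p = 0.00947), and its adaptor SEL1L fell in K562 by 0.20 (edgeR adjusted p = 0.0118). Of 24 translocation and secretion genes, 1 rose and 2 fell in KBM7, and 1 rose and 3 fell in K562 (0 and 2 with the replicate block). Both lists were below the 29% of all genes called in KBM7 and close to the 15.8% called in K562. Without KBM7 siCtrl replicate 1, 0 genes of either list were called in KBM7, and without K562 siCtrl replicate 2, 0 of either in K562. SEC62, part of the post-translational import channel, fell in KBM7 by 0.15 (edgeR adjusted p = 0.0249), and SEC61A1, the pore itself, rose in K562 by 0.16 (edgeR adjusted p = 0.027, and 0.073 with the replicate block).

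Among 7 genes of the sensors and their activation, 2 rose and 0 fell in KBM7, which is close to the 29% of all genes called there. MBTPS2, the protease that completes ATF6 cleavage, had 78.6 and 72.9 CPM with siUSP15, against 58.3 and 56.8 CPM with siCtrl, a log2 fold change of 0.40 (edgeR adjusted p = 0.000222). ATF6 had 120.6 and 119.6 CPM with siUSP15, against 103.3 and 102.1 CPM with siCtrl, a log2 fold change of 0.23 (edgeR adjusted p = 0.00255). EIF2AK3, which encodes PERK, had a log2 fold change of -0.18 (edgeR adjusted p = 0.0544), and with the replicate block it was called lower (edgeR adjusted p = 0.0464). In K562, MBTPS2 fell by 0.33 (edgeR adjusted p = 0.00953) and MBTPS1, the protease of the first cleavage, rose by 0.16 (edgeR adjusted p = 0.0223, and 0.0633 with the replicate block).

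Most of the ATF4 and amino acid genes rose in KBM7. There, 21 of 31 tested rose and 2 fell, against 13.2% and 15.8% of all genes, with a median log2 fold change of 0.40 beside 0.04 for the 10 ER genes. PSAT1, an enzyme of serine synthesis, had 243.4 and 203.6 CPM with siUSP15, against 111.3 and 106.8 CPM with siCtrl, a log2 fold change of 1.04 (edgeR adjusted p = 1.46e-06). SLC7A11, the cystine transporter, had 42.9 and 42.8 CPM with siUSP15, against 26.3 and 27.1 CPM with siCtrl, a log2 fold change of 0.68 (edgeR adjusted p = 1.11e-05). SLC38A2, a transporter of neutral amino acids, fell by 0.89 (edgeR adjusted p = 1.69e-06). The count of 21 ranged from 17 to 24 without each KBM7 library in turn.

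In K562, 1 of 32 tested ATF4 and amino acid genes rose and 12 fell, against 6.88% and 8.9% of all genes, with a median log2 fold change of -0.11 beside 0.13 for the 10 ER genes. DDIT3, which encodes the transcription factor CHOP, had 32.5, 31.7, 36.2 and 34.2 CPM in siUSP15 replicates 1 to 4, against 48.8, 49.5, 41.6 and 42.2 CPM in siCtrl replicates 1 to 4, a log2 fold change of -0.44 (edgeR adjusted p = 0.0032). TRIB3, a pseudokinase induced by CHOP, had 81.1, 79.7, 85.1 and 83.2 CPM with siUSP15, against 104.7, 101.7, 97.2 and 97.6 CPM with siCtrl, a log2 fold change of -0.29 (edgeR adjusted p = 0.0022). SESN2, a leucine sensor, fell by 0.38 (edgeR adjusted p = 0.00258). All 4 siUSP15 libraries lay below all 4 siCtrl libraries for DDIT3 and TRIB3. The count of 12 that fell was 6 with the replicate number as a block, 4 without siCtrl replicate 2, 6 without siCtrl replicate 1 or siUSP15 replicate 1, 7 without siCtrl replicate 4 and at least 8 without any other library.

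By set, 15 of 32 ATF4 and amino acid genes fell and 2 rose in K562 replicates 1 and 2, against 18.7% and 18% of all genes. In replicates 3 and 4, 4 of 32 fell and 0 rose, against 1.25% and 1.19% of all genes. The median there was -0.03, and 12 of 32 values lay above 0. The 4 became 0 without siCtrl replicate 4 or siUSP15 replicate 4, 1 without siCtrl replicate 3 and 2 with DESeq2. DDIT3 was called lower in both sets, with -0.62 in replicates 1 and 2 and -0.25 in replicates 3 and 4. The difference between the cell lines was called for 22 of 33 ATF4 and amino acid genes, 20 of them higher in KBM7. Of all genes, 23.2% were called, 10.6% higher and 12.6% lower. Among the 20 were DDIT3 (0.86, edgeR adjusted p = 1.95e-07) and TRIB3 (0.73, edgeR adjusted p = 6.25e-07). ATF4 RNA itself was not called in KBM7 (-0.01, edgeR adjusted p = 0.845) or in K562 (-0.05, edgeR adjusted p = 0.344), and ATF4 protein was not measured. No test between the lists was run, and the ER genes and the ATF4 genes are set side by side as counts.

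Cytosolic heat shock genes were read beside the ER chaperones. In KBM7, 2 of 19 rose and 1 fell, and in K562 with the set term 2 rose and 1 fell (1 and 0 with the replicate block). That is below the 29% of all genes called in KBM7 and level with the 15.8% called in K562. Within replicates 1 and 2 of K562, 13 of 19 rose and 1 fell, against 18% and 18.7% of all genes, and 8 rose without siCtrl replicate 1, whereas in replicates 3 and 4 1 rose and 0 fell. Of all genes, 1.19% rose and 1.25% fell in replicates 3 and 4. HSPB1, a small heat shock protein, fell in KBM7 by 0.35 (edgeR adjusted p = 0.000751) and rose in K562 by 0.37 (edgeR adjusted p = 0.0048). In K562 HSPB1 had 236.4, 240.0, 205.7 and 206.5 CPM in siUSP15 replicates 1 to 4, against 165.9, 158.5, 174.7 and 186.5 CPM in siCtrl replicates 1 to 4.

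**Figure D4:**
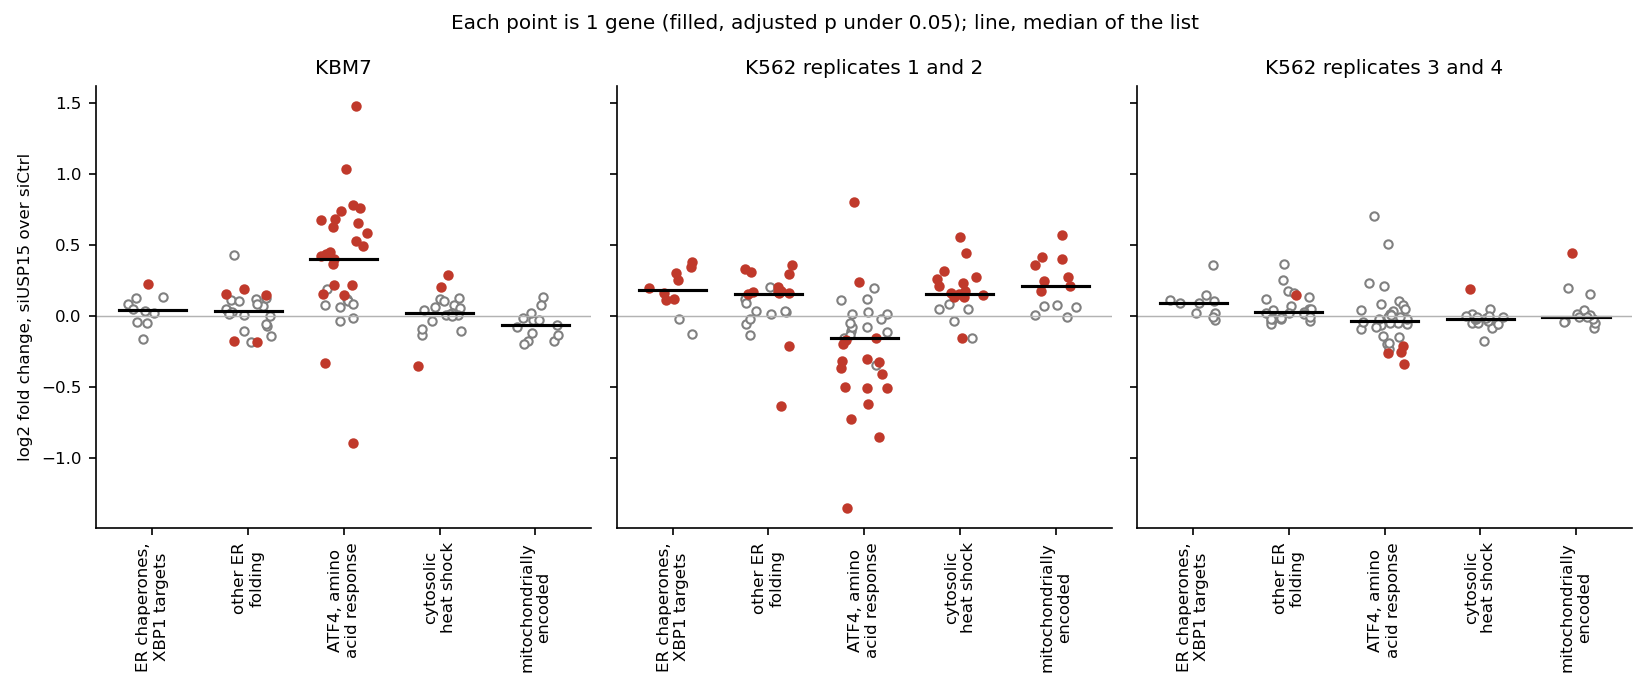
Log2 fold change of siUSP15 over siCtrl for each gene (points, filled where the adjusted p is under 0.05) of 5 lists in KBM7, K562 replicates 1 and 2 and K562 replicates 3 and 4, with the median of each list (line). The ATF4 and amino acid genes lie mostly above 0 in KBM7 (median 0.40) and below it in K562 replicates 1 and 2 (median -0.15), where the ER chaperones and XBP1 targets have a median of 0.18.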

How the data were processed

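RNA of KBM7 and K562 was sequenced after TruSeq preparation. The authors deposited raw counts per gene for 12 libraries, in 1 table per cell line, beside 12 columns of log2 values per library and their own fold changes and adjusted p-values, none of which were used. The submitters' processing notes name TopHat2 2.1.0, HTSeq, edgeR, limma and hg38, whereas the key resources of the study name Itreecount and DEGseq, and labels and methods differ in the HiSeq model. Reads shared by overlapping genes may be counted differently by these counters.

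From the counts, genes were filtered with filterByExpr by cell line and siRNA, scaled by TMM and tested with edgeR 4.0.16 in R 4.3.3. KBM7 had no covariate and K562 a set term (replicates 1 and 2, replicates 3 and 4). Single sets came from a fit of 4 groups, and the difference between the cell lines from a fit of 6 groups over genes in both tables. The lists, the set term and the 10 genes were chosen with earlier results of these data known. Named genes were USP15, the 10, the 3 lowest p-values per list and cell line, and the 5 most similar profiles. ATF4, MANF in KBM7 minus K562, and the lists' values by set were added after their values were seen. No source says that replicates are separate cultures, so the p-values reflect library-to-library spread, which may be technical. No libraries of a group were copies (chi-square of at least 1.67 per degree of freedom). In K562, same-numbered libraries deviated together from their group means (correlations 0.55 to 0.695). Yet siUSP15 replicate 1 was most like siCtrl replicate 2, and siUSP15 replicate 2 most like siCtrl replicate 1. Centering on the sets left 0.00697 to 0.0865. Pairing by replicate number was thus not shown, and the replicate block is given as an alternative. In KBM7 the correlation was 0.000978.

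Alternatives were RLE size factors, no filter, DESeq2 1.42.0, limma-voom (limma 3.58.1), each library left out, the replicate block, no set term, each set alone and both cell lines in one fit. The tests were checked on simulated counts. Promoters are from RefSeq, read with Python 3.11.15, and figures were drawn with matplotlib 3.10.9. Some markers on the lists are not reported here.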

Additional observations from a re-analysis of the deposited data

Results flagged for a closer look

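In K562, HSP90B1 had 854.8 CPM in siCtrl replicate 4, far below the other 3 siCtrl libraries, the 1 group of 4 libraries among 22 tested whose lowest or highest value stood apart by Dixon's criterion, which chance alone meets in about 1 of 20 groups. The group pools both K562 sets. Without that library the log2 fold change of HSP90B1 was 0.10 and no longer called (edgeR adjusted p = 0.087). The call did not hinge on that library alone, since it was lost in 5 of the 8 fits that left out 1 K562 library.

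The response to siUSP15 differed between the K562 sets, replicates 1 and 2 minus replicates 3 and 4, for PDIA4 by 0.23, for HYOU1 by 0.20 and for USP15 itself by -0.32, each by the test of the difference.

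The response differed between the cell lines, KBM7 minus K562, for XBP1 by 0.19, for HSPA5 by -0.18, for PDIA4 by -0.17 and for HYOU1 by -0.15, each by the test of the difference.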

How the results depend on the processing

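The KBM7 count of 1 gene, XBP1, held under every alternative run. In K562 the count of 6 was 0 without the set term, 4 with the replicate block, 7 with both cell lines in one fit and 2 to 6 with 1 library left out. In replicates 1 and 2 the count of 8 ranged from 4 to 8 with 1 library left out. In replicates 3 and 4 the count of 0 was 1 without the filter, 1 with DESeq2, 1 with limma-voom and 0 to 1 with 1 library left out. The count of 2 for the difference between the sets ranged from 0 to 3 with 1 library left out, and the count of 4 for KBM7 minus K562 from 2 to 5, and was 0 with the K562 sets pooled. Over all genes in K562, 2167 were called with the set term, 1022 with the replicate block and 0 without the set term. In KBM7 the replicate block changed no call of the 10 genes. No called value reversed. Of the values of single genes and lists under the alternatives, 829 were the same, 100 weaker and 21 stronger. Single genes were judged by their side of the threshold, and list counts by how far they moved from the main count. With siUSP15 or siCtrl left with 1 library in KBM7 or a K562 set, the lone library was assumed to vary like the others. The causes were not tested. In KBM7 the 95% intervals were widest for DNAJB9 (-0.36 to 0.05) and SDF2L1 (-0.09 to 0.33), the genes with the lowest CPM of the 10 there.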
